A study of Mus musculus with 12 samples.

Results

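The genes described here encode enzymes that modify and crosslink collagen: the lysyl oxidase Lox and its relatives Loxl1, Loxl2, Loxl3 and Loxl4, the lysyl hydroxylases Plod1, Plod2 and Plod3, and the prolyl hydroxylase subunits P4ha1 and P4ha2. They were chosen by symbol, and all 10 were found among the 78298 genes of the deposited tables and passed the filter on low counts. RGECO is C2C12 with a calcium indicator encoded in its genes, and it was compared with wild-type C2C12 (WT), an established line of mouse myoblasts. Both lines were treated alike: differentiation lasted 14 days on a hydrogel of methacrylated gelatin, with 10% horse serum, 50 ng per ml IGF-1 and 1 mg per ml aminocaproic acid. The labels give 6 libraries of each line, and do not state the promoter of the indicator or whether the RGECO line is 1 clone. Gelatin is itself denatured collagen.

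Prolyl hydroxylases act in the endoplasmic reticulum, where hydroxyproline stabilises the collagen triple helix. Lysyl hydroxylases modify lysines there, and some of the resulting hydroxylysines carry sugars or later enter crosslinks. Lysyl oxidases work mostly outside the cell, need copper, and oxidise lysine and hydroxylysine side chains of collagen and elastin to aldehydes, which then form covalent crosslinks. In muscle these enzymes are best known from the connective tissue around fibres, and the stiffness of that tissue depends on crosslinks.

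The 5 RGECO libraries used held 5881622 to 11926220 counts, and the 6 WT libraries held 9370322 to 11744314 counts. RGECO replicate 4 held 825 counts in all and 0 counts for each of the 10 genes, and it is left out unless all 12 libraries are named. The myotube genes Acta1 (skeletal actin) and Myh3 (embryonic myosin heavy chain) were present in both lines, at a mean of 9486 and 473 TPM in RGECO and 7392 and 303 TPM in WT. These values show presence only. The line difference in Acta1 did not pass the test described below, and the myotube genes Ckm and Myog had lower estimates in RGECO. TPM is transcripts per 1000000, corrected for transcript length, and CPM is counts per 1000000 counts of a library, scaled between libraries. The samples are bulk RNA, so fewer cells of a type and less RNA per cell cannot be told apart.

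At adjusted p under 0.05, Loxl2 was the only 1 of the 10 genes called higher in the RGECO line, and Plod1 and Lox were called lower. Loxl2 was 1.81-fold higher, whereas Plod1 was 1.56-fold and Lox 1.36-fold lower in RGECO than in WT. Among all 13318 genes tested 8.35% passed adjusted p 0.05, with 3.42% higher and 4.93% lower in RGECO, against 1 higher and 2 lower of the 10 enzyme genes. The median log2 fold change was -0.12 over the 10 genes and -0.01 over all genes tested. The other 7 genes did not pass. Counts of enzyme genes called stood at 3 without a filter on low counts (3.67% of all genes called) and 3 with a replicate block (5.95%), where Loxl1 passed and Lox did not, at 2 on log2(TPM + 1) (4.29%), log2(TPM + 0.1) (4.05%) and log2(TPM + 1) without a filter (0.885%), and at 1 with all 12 libraries (6.31%).

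**Figure D1:**
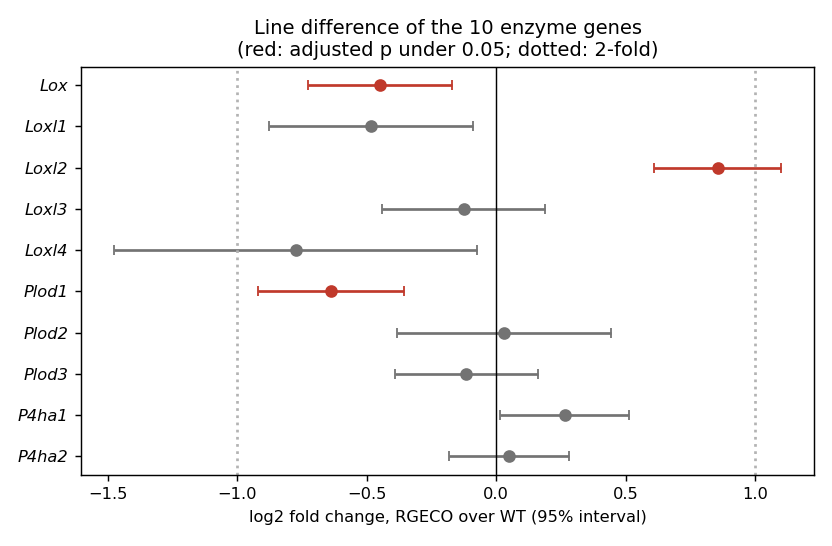
Log2 fold change of each enzyme gene (RGECO over WT) with its 95% interval, from edgeR's quasi-likelihood fit of 5 RGECO and 6 WT libraries. Loxl2 lies at 0.86, Lox at -0.45 and Plod1 at -0.64 (red), and the intervals of Loxl2 and Loxl4 cross the dotted lines of 2-fold.

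Of the lysyl oxidases, Loxl2 encodes a secreted enzyme with scavenger receptor domains ahead of its catalytic domain, best known for crosslinking basement membrane collagen IV. It lies on chromosome 14, 69609068 to 69695834 (GRCm38, plus strand). Loxl2 had 181, 149, 176, 141 and 145 CPM in RGECO replicates 1, 2, 3, 5 and 6, against 75.3, 80.3, 103, 82.1, 100.1 and 84.9 CPM in WT replicates 1 to 6. All 5 RGECO libraries were above all 6 WT libraries, a separation that 7.97% of the genes tested showed in 1 direction or the other. The means were 159 ± 18.9 CPM in RGECO (SD, n = 5) and 87.7 ± 11.4 CPM in WT (SD, n = 6), giving 0.86 ± 0.11 for the log2 fold change (SE; adjusted p = 2.44e-04, edgeR quasi-likelihood F test, Benjamini-Hochberg). Loxl2 stood at the 97.5th percentile of log2 fold changes. Its call was kept under every alternative run, with log2 fold changes of 0.79 to 0.96 (adjusted p = 1.78e-10 to 0.0319). An antisense gene, Gm27177, shares 301 exon bases with Loxl2, and held 42 counts over the RGECO libraries and 26 over the WT libraries, against 7255 and 5327 for Loxl2.

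Lox, the founding member of the family, oxidises lysines of fibrillar collagens and elastin. It lies on chromosome 18, 52516067 to 52529867 (GRCm38, minus strand). Lox had 609, 564, 543, 480 and 714 CPM in RGECO replicates 1, 2, 3, 5 and 6, against 719, 669.9, 671, 886, 824 and 996 CPM in WT replicates 1 to 6. RGECO replicate 6 reached into the WT range, above WT replicates 2 and 3. The means were 582 ± 87.2 CPM in RGECO (SD, n = 5) and 794 ± 131 CPM in WT (SD, n = 6), giving -0.45 ± 0.13 for the log2 fold change (SE; edgeR adjusted p = 0.0455). The call was lost without RGECO replicate 1, 2, 3 or 5 (adjusted p = 0.0760, 0.107, 0.101 and 0.105) or WT replicate 1, 4, 5 or 6 (adjusted p = 0.0584, 0.0870, 0.0926 and 0.0862), each left out alone, with a replicate block (log2 fold change -0.40, adjusted p = 0.0684), and on log2(TPM + 1) (log2 fold change -0.33, limma adjusted p = 0.370).

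Loxl1, which in mice is needed to renew elastic fibres, did not pass. It had 129, 126, 159.8, 155 and 93.7 CPM in RGECO replicates 1, 2, 3, 5 and 6, against 222, 241, 226, 134, 158 and 132 CPM in WT replicates 1 to 6. WT replicates 1, 2 and 3 stood above every RGECO library, while WT replicates 4, 5 and 6 lay inside the RGECO range. The log2 fold change was -0.48 ± 0.18 (SE; edgeR adjusted p = 0.130).

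Loxl3 and Loxl4, which share the domain layout of Loxl2, were the least expressed of the 10 genes. Loxl3 ranged from 31.5 to 50.4 CPM in RGECO and from 35.1 to 57.9 CPM in WT, giving -0.13 ± 0.15 for the log2 fold change (SE; edgeR adjusted p = 0.685). The interval of Loxl3 lay inside 2-fold, from -0.44 to 0.19. Loxl4 ranged from 4.03 to 10.5 CPM in RGECO and from 7.27 to 23.6 CPM in WT, and WT replicates 1 and 2 held the highest values. Its log2 fold change of -0.77 ± 0.33 (SE; edgeR adjusted p = 0.174) had the widest interval of the 10, from -1.47 to -0.07. Loxl3 shares 535 exon bases with Htra2 on the other strand, and without a stated strand setting the reads of such partners cannot be told apart.

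**Figure D2:**
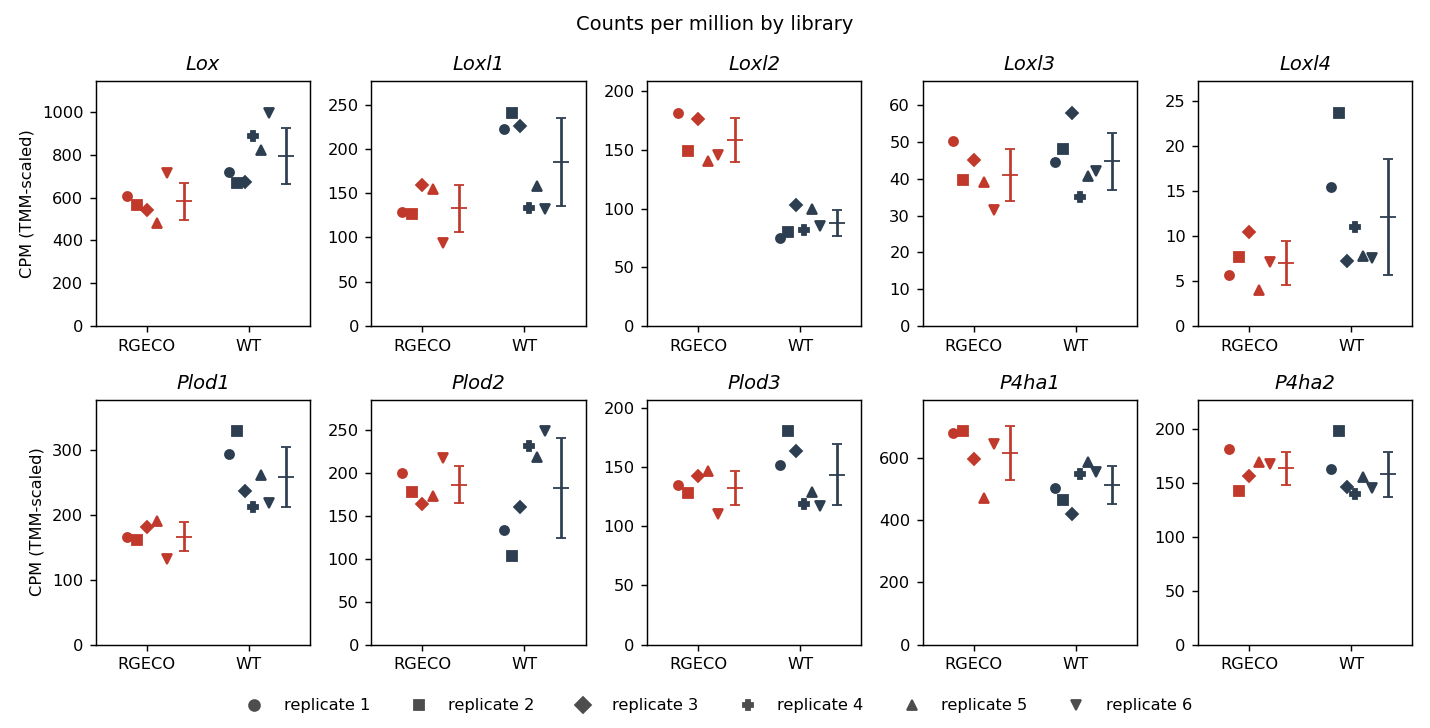
CPM of the 10 genes in each library, RGECO left and WT right in each panel, with the replicate number as the symbol and the mean and SD beside the points. Loxl2 separates the lines upwards and Plod1 downwards, and Plod2 spreads from 103 to 248 CPM within WT.

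Of the lysyl hydroxylases, Plod1 acts on lysines in the helical part of collagen. It lies on chromosome 4, 147909753 to 147936767 (GRCm38, minus strand). Plod1 had 166, 162, 181, 190.4 and 132 CPM in RGECO replicates 1, 2, 3, 5 and 6, against 294, 329, 237, 213, 263 and 219 CPM in WT replicates 1 to 6. No RGECO library reached the lowest WT library. The means were 167 ± 22.2 CPM in RGECO (SD, n = 5) and 259 ± 45.7 CPM in WT (SD, n = 6), giving -0.64 ± 0.13 for the log2 fold change (SE; edgeR adjusted p = 0.00687). Without any 1 library the call held (adjusted p = 0.00668 to 0.0303), and on log2(TPM + 1) the log2 fold change was -0.52 (limma adjusted p = 0.0165). With all 12 libraries, which brings in the library of 825 counts, the calls of Plod1 and Lox were lost (adjusted p = 0.196 and 0.714).

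Plod2 hydroxylates lysines in the collagen telopeptides, which directs crosslinks to the hydroxylysine type, and is known as a hypoxia-induced gene. It had 199, 177, 164, 173 and 217 CPM in RGECO replicates 1, 2, 3, 5 and 6, against 133, 103, 159.8, 231, 219 and 248 CPM in WT replicates 1 to 6. The WT libraries lay on both sides of the RGECO range, with replicates 1, 2 and 3 below it and replicates 4, 5 and 6 above it. The log2 fold change was 0.03 ± 0.19 (SE; edgeR adjusted p = 0.955), with an interval from -0.38 to 0.44. The coefficient of variation of Plod2 CPM was 11.6% in RGECO and 32.2% in WT. The difference in spread was not tested.

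Plod3, which also has glycosyltransferase activity, ranged from 109.9 to 146 CPM in RGECO and from 117 to 180.1 CPM in WT. Its log2 fold change of -0.12 ± 0.13 (SE; edgeR adjusted p = 0.663) had an interval from -0.39 to 0.16. Plod3 shares 529 exon bases with Znhit1 on the other strand.

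The prolyl hydroxylase subunits did not pass. P4ha1 and P4ha2 each form an active enzyme with the protein disulfide isomerase P4hb, and both are known hypoxia-induced genes. P4ha1 had 683, 687, 599, 473 and 647 CPM in RGECO replicates 1, 2, 3, 5 and 6, against 503, 467, 422, 550.0, 589 and 555 CPM in WT replicates 1 to 6. All RGECO libraries but replicate 5 stood above every WT library. The log2 fold change was 0.26 ± 0.12 (SE; edgeR adjusted p = 0.197), and its interval ran from 0.01 to 0.51. P4ha2 ranged from 142 to 181 CPM in RGECO and from 139 to 197 CPM in WT, giving 0.05 ± 0.11 for the log2 fold change (SE; edgeR adjusted p = 0.851) with an interval from -0.18 to 0.28.

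Upstream sequences were available here for 5 of the 10 genes. Those of Plod1, which fell, and of P4ha1 are shown because hypoxia-inducible factors bind a core of ACGTG or GCGTG, and P4ha genes are known targets. Each run is the 250 bases before the RefSeq start, 5′ to 3′ on the gene's strand (GRCm38.p6), with matches to either core on either strand in capitals. The window of Plod1 is chr4:147936777-147937026 on the minus strand, and that of P4ha1 is chr10:59323046-59323295 on the plus strand.
Plod1: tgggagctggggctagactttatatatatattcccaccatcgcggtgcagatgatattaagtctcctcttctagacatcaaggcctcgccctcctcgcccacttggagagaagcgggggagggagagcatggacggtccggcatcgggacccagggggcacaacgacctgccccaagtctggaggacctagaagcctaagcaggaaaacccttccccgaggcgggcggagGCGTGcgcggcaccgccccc
P4ha1: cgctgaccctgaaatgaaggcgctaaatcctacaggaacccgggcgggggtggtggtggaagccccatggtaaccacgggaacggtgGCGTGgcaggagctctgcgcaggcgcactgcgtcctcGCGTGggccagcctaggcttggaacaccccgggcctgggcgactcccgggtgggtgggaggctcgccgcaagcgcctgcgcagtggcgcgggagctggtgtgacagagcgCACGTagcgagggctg
P4ha1 held 2 matches to GCGTG, whose first bases lie 163 and 126 bases before the start, and 1 to ACGTG on the other strand, 16 bases before it, and Plod1 held 1 match to GCGTG, 20 bases before the start. Of all 32851 promoter windows of this length 16.6% held ACGTG, 28.2% held GCGTG and 38.6% held at least 1 of them. All 5 windows of the enzyme genes held at least 1 match, with 1 in Loxl4, 3 in P4ha2 and 4 in Plod3. Of the Plod3 window 208 bases are exon of Znhit1, and of the Loxl4 window 7 bases are exon of Loxl4. The P4ha2 window, chr11:54100674-54100923 on the plus strand, lies inside the gene by its GENCODE position, which starts at 54100095. The 5 windows were 55.6% (Plod3) to 76.0% (Loxl4) G or C, and the background was not matched for this. Whether the 5 windows held more matches than such windows was not tested. A match of 5 bases is a description of the sequence and not a binding site.

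Per transcript length, P4ha1 had the highest mean TPM of the 10 in both lines and Loxl4 the lowest, although in WT the means of P4ha1 and Lox were close and their ranges overlapped. In RGECO the mean TPM was 278 for P4ha1, 164 for Lox, 115 for P4ha2, 72.7 for Plod2, 70.6 for Plod1, 64.7 for Plod3, 53.7 for Loxl1, 47.9 for Loxl2, 13.6 for Loxl3 and 2.48 for Loxl4. In WT it was 217 for P4ha1, 211 for Lox, 117 for P4ha2, 101 for Plod1, 68.7 for Loxl1, 67.2 for Plod3, 65.6 for Plod2, 24.7 for Loxl2, 13.9 for Loxl3 and 3.94 for Loxl4. P4ha1 was above Lox in 5 of 5 RGECO libraries and in 4 of 6 WT libraries. Neighbours in this order had TPM ranges that overlapped, apart from P4ha2 and Plod2 in RGECO, and Loxl2, Loxl3 and Loxl4 in both lines. Plod2 was above Plod1 in 3 of 5 RGECO libraries and Plod3 above Plod2 in 3 of 6 WT libraries, so the order among these is not fixed by the data. The summed TPM of the 10 genes was 883 ± 117 in RGECO (SD, n = 5) and 890.3 ± 133 in WT (SD, n = 6), with ranges that overlapped.

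Shares within each family are given as a description, with no test. Loxl2 made up 17.0% ± 2.05 of the summed TPM of the 5 genes in RGECO (SD, n = 5) and 7.74% ± 1.54 in WT (SD, n = 6), and the lines did not overlap (13.8% to 18.8% in RGECO, 6.0% to 10.2% in WT). Lox made up 58.0% ± 6.93 in RGECO and 64.5% ± 8.71 in WT, with overlap. Among the lysyl hydroxylases Plod1 made up 34.0% ± 3.52 in RGECO and 43.6% ± 5.43 in WT, and Plod2 35.0% ± 5.48 in RGECO and 27.4% ± 8.67 in WT, again with overlap. P4ha1 made up 70.5% ± 3.32 of the P4ha1 and P4ha2 sum in RGECO and 64.5% ± 4.22 in WT, with overlap. Shares of 1 sum are not independent of each other.

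**Figure D3:**
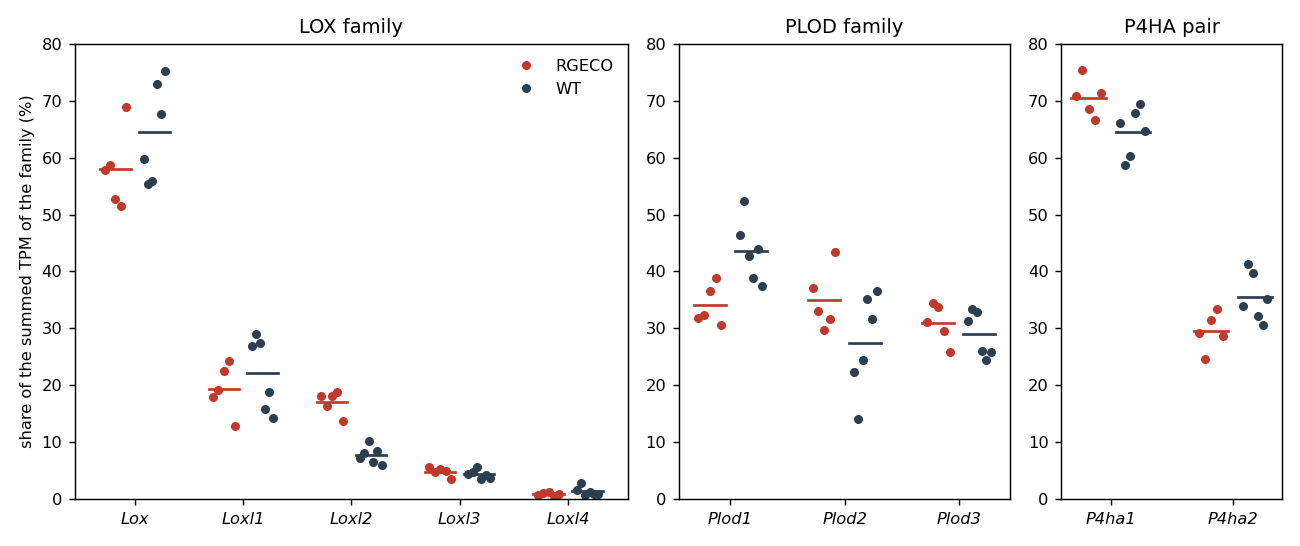
Share of each gene in the summed TPM of its own family, in percent, with 1 point per library and a line at the mean of each group (RGECO red, WT dark). The RGECO points of Loxl2, 13.8% to 18.8%, all lie above the WT points, 6.0% to 10.2%.

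Paralogs were set against each other within each library, which removes the scaling between libraries. The log2 ratio of Loxl2 to Loxl3 CPM was 1.95 ± 0.15 in RGECO (SD, n = 5) and 0.97 ± 0.24 in WT (SD, n = 6), a difference of 0.98 with no overlap between the lines (exact permutation p = 0.00216, the smallest that 462 assignments allow; adjusted p = 0.00866 over 4 ratios). The ratio of Plod2 to Plod1 was 0.16 ± 0.35 in RGECO and -0.56 ± 0.73 in WT, a difference of 0.72 that did not pass (exact permutation adjusted p = 0.139). Neither did the ratio of P4ha2 to P4ha1, at -1.91 ± 0.28 in RGECO and -1.71 ± 0.29 in WT (exact permutation adjusted p = 0.367). Loxl1 to Lox stood at -2.14 ± 0.51 in RGECO and -2.13 ± 0.63 in WT (exact permutation adjusted p = 0.950). Loxl2 and Loxl3 thus moved unequally, while for the other 3 pairs an unequal move was not detectable. Loxl2 separated the lines without Loxl3, so its ratio largely repeats the difference in Loxl2 and is not separate evidence.

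Several of the enzymes followed a pattern among libraries of 1 line. WT replicates 4, 5 and 6 had 886, 824 and 996 CPM of Lox and 231, 219 and 248 CPM of Plod2, above the 669.9 to 719 CPM of Lox and 103 to 159.8 CPM of Plod2 in WT replicates 1, 2 and 3. Loxl1 ran the other way, at 134, 158 and 132 CPM in WT replicates 4, 5 and 6 and 222, 241 and 226 CPM in WT replicates 1, 2 and 3. Plod3 did so too, at 119, 129 and 117 CPM against 152, 180.1 and 163 CPM. So did Loxl3, at 35.1, 40.9 and 42.2 CPM against 44.7, 48.2 and 57.9 CPM. P4ha1 ran with Lox and Plod2 in WT, at 550.0, 589 and 555 CPM against 503, 467 and 422 CPM. In RGECO replicate 6, however, P4ha1 had 647 CPM, below RGECO replicates 1 and 2. In RGECO, replicate 6 had the highest Lox and Plod2 and the lowest Loxl1, Loxl3, Plod1 and Plod3.

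Mitochondrially encoded RNA moved with this pattern. It took 1.33% of counts in RGECO replicate 6 and 0.298% to 0.726% in the other 4 RGECO libraries used, and 1.68%, 1.16% and 1.59% in WT replicates 4, 5 and 6, against 0.754%, 0.204% and 0.530% in WT replicates 1, 2 and 3. The share of the nuclear RNA Malat1 was 0.784%, 0.641% and 0.898% in WT replicates 4, 5 and 6, and 0.430%, 0.156% and 0.566% in WT replicates 1, 2 and 3. In RGECO it was 0.645% in replicate 6 and 0.633% in replicate 1, and 0.180% to 0.274% in the other 3. With the mitochondrial share as a covariate 6 of the 10 genes passed, where 23.5% of all genes did: Loxl2 at 0.84 and P4ha1 at 0.34 higher, and Plod1 at -0.74, Loxl1 at -0.65, Lox at -0.33 and Plod3 at -0.22 lower (edgeR adjusted p = 8.51e-06, 0.0122, 3.30e-06, 1.78e-05, 0.00499 and 0.0298). Adding the Malat1 share instead gave 7 passing genes, where 20.8% of all genes passed, with Plod2 at 0.35 and Loxl4 at -0.99 called and Plod3 not (edgeR adjusted p = 0.0319 for Plod2 and 0.0109 for Loxl4). Loxl2, Plod1 and Lox passed in both covariate fits, as did Loxl1 and P4ha1, which did not pass without a covariate, while the calls of Plod2, Plod3 and Loxl4 depended on which share was used. The part of either share in the differences was not tested further.

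**Figure D4:**
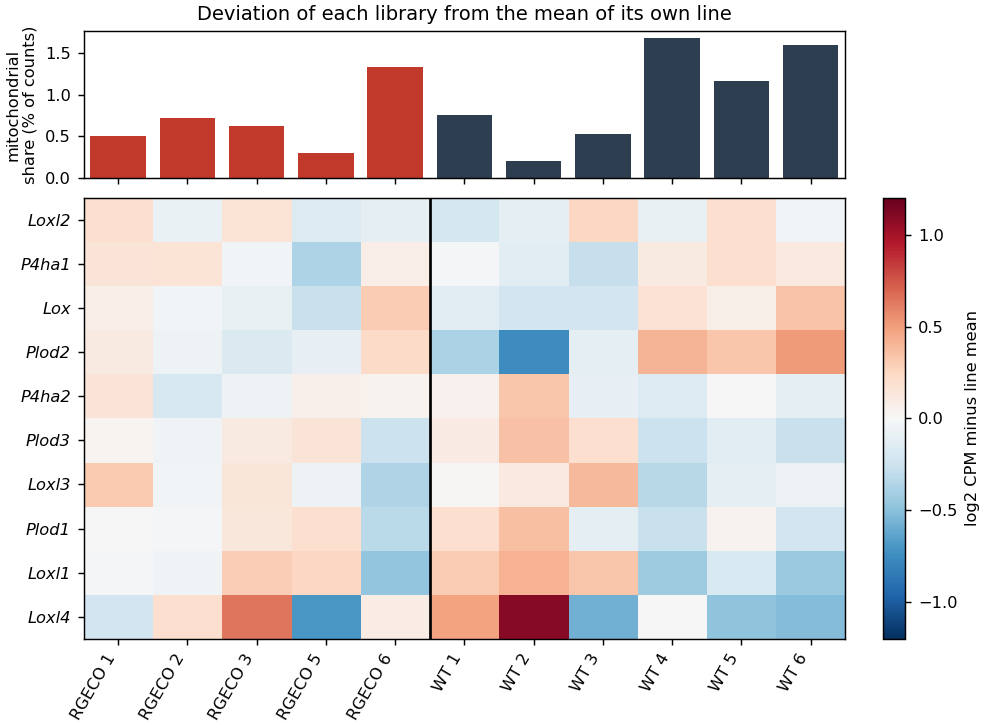
Top, mitochondrially encoded share of counts per library in percent. Bottom, log2 CPM of each gene minus the mean of its own line (red above, blue below), with RGECO libraries left and WT right; Lox and Plod2 are high and Loxl1 low in WT replicates 4, 5 and 6 and in RGECO replicate 6, the libraries with shares of 1.16% to 1.68%.

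Of the substrates of these enzymes, Col1a1, Col3a1, Col1a2 and Col5a2 fell in RGECO. For this and the lists that follow, 8.35% of all genes tested passed by edgeR (3.42% higher and 4.93% lower), and DESeq2 called 12.6%. Of 8 fibrillar collagen genes tested 0 rose and 4 fell (4 called by DESeq2), with a median log2 fold change of -0.77: Col1a1 at -1.98 ± 0.23, Col3a1 at -0.80 ± 0.13, Col1a2 at -0.74 ± 0.14 and Col5a2 at -0.58 ± 0.09 (SE; edgeR adjusted p = 7.18e-05, 0.00106, 0.00418 and 9.49e-04). Col5a1, Col5a3, Col11a1 and Col11a2 did not pass (edgeR adjusted p = 0.105, 0.410, 0.378 and 0.133). Elastin (Eln) held 16 counts over the RGECO libraries and 21 over the WT libraries and was not tested. The summed TPM of the type I and type III collagen chains Col1a1, Col1a2 and Col3a1 was 986 ± 210 in RGECO (SD, n = 5) and 1785 ± 391 in WT (SD, n = 6). Per 100 TPM of these 3 chains there were 4.98 ± 0.94 TPM of Loxl2 in RGECO and 1.39 ± 0.11 in WT, and 29.7 ± 9.41 TPM of P4ha1 in RGECO and 12.4 ± 2.68 in WT, without overlap for either gene. Lox stood at 17.7 ± 6.69 TPM per 100 TPM of the chains in RGECO and 12.02 ± 3.2 in WT, and Plod1 at 7.31 ± 0.99 in RGECO and 5.89 ± 1.296 in WT, both with overlap. So relative to these chains neither enzyme was lower in RGECO, though both fell in CPM. The summed TPM of the chains was itself lower in RGECO without overlap, so a gene of unchanged TPM rises in this ratio. Every enzyme gene had a higher mean ratio in RGECO. P4ha2 stood at 12.1 in RGECO and 6.73 in WT, Plod3 at 6.75 and 3.89, and Loxl3 at 1.41 and 0.79, each with overlap. The ratios are thus not separate evidence of a rise in Loxl2 or P4ha1. The share of all genes that separate the lines in this ratio was not tested. Collagen IV chains, the substrate named above for Loxl2, were not in the substrate list, so Loxl2 was not set against them.

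Among the other hydroxylases, glycosyltransferases and their partners, 13 genes were tested, of which 1 rose and 2 fell, with a median of -0.19. The third prolyl hydroxylase subunit, P4ha3, fell to 7.89 ± 1.77 CPM in RGECO (SD, n = 5), against 16.9 ± 3.0 CPM in WT (SD, n = 6), giving -1.09 ± 0.19 for the log2 fold change (SE; edgeR adjusted p = 0.00220). The prolyl 3-hydroxylase family gene P3h3 fell by 1.22 on the log2 scale, while the prolyl 3-hydroxylase P3h2 rose by 0.76 (edgeR adjusted p = 0.00332 and 0.0128). P4hb, the partner subunit of all P4ha proteins, was at 814 ± 61.9 CPM in RGECO (SD, n = 5) and 1045 ± 141 CPM in WT (SD, n = 6), giving -0.36 ± 0.11 for the log2 fold change (SE; edgeR adjusted p = 0.0559), so it did not pass. It passed in both covariate fits (edgeR adjusted p = 0.00979 for the mitochondrial share, 0.00436 for Malat1).

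Procollagen processing and activation of lysyl oxidase involve proteases and their helpers. Of 7 such genes tested 1 rose and 2 fell, with a median of -0.15. Bmp1, the protease that removes procollagen C-propeptides and activates the Lox precursor, was at 128 ± 10.8 CPM in RGECO (SD, n = 5) and 120 ± 12.6 CPM in WT (SD, n = 6), with 0.10 ± 0.10 for the log2 fold change (SE; edgeR adjusted p = 0.650). Pcolce2, which enhances C-propeptide removal, rose by 0.68, and Adamts2, which removes N-propeptides, and the membrane protease Mmp14 fell by 1.06 and 0.52 on the log2 scale (edgeR adjusted p = 0.00439, 0.00149 and 0.0111).

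Among matrix proteins that hold lysyl oxidases in place or shape crosslinking, 11 genes were tested, of which 1 rose and 7 fell, with a median of -0.60. The proteoglycans Bgn and Fmod, the elastic fibre protein Fbln5, which binds Loxl1, and the glycoprotein Thbs1 fell by 1.12, 3.85, 1.13 and 0.55 on the log2 scale (edgeR adjusted p = 8.28e-05, 2.66e-04, 6.09e-04 and 0.00271), and the proteoglycan Dcn rose by 0.96 (edgeR adjusted p = 0.00193). Fmod was at 0.508 ± 0.477 CPM in RGECO (SD, n = 5) and 7.04 ± 1.35 CPM in WT (SD, n = 6), and 3 counts are worth 0.251 to 0.525 CPM in the RGECO libraries, which held 21 Fmod counts in all. The size of its change is therefore uncertain: the log2 fold change was -4.34 without RGECO replicate 3, -3.45 without RGECO replicate 6 and -1.66 on log2(TPM + 1).

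On log2(TPM + 1) the calls of Col1a2, Adamts2 and Mmp14 were lost (limma adjusted p = 0.144, 0.110 and 0.0928). With all 12 libraries the calls of Col1a1, Col3a1, Col1a2, Col5a2, Bgn, Thbs1, Dcn, Mmp14, Sec24d, Pfkfb3 and Car9 were lost (adjusted p = 0.0511 to 0.703), each in the same direction, with log2 fold changes such as -2.19 for Col1a1, -1.04 for Col3a1, -0.77 for Thbs1 and 0.82 for Dcn. In the remaining lists few genes passed by edgeR. Of 6 copper supply genes 0 passed by edgeR, with 2 at an unadjusted p under 0.05 and 1 called by DESeq2. Of 12 collagen secretion genes 0 rose and 1 fell, the coat protein gene Sec24d at -0.51 (edgeR adjusted p = 0.00821). Of 7 vitamin C and iron supply genes 0 rose and 1 fell, the glucose transporter Slc2a3 at -1.17 (edgeR adjusted p = 0.00105). Of 20 oxygen sensing and hypoxia genes 1 rose, Pfkfb3 at 0.47, and 1 fell, the carbonic anhydrase Car9 at -0.49 (edgeR adjusted p = 0.0391 and 0.0213). Of these 20 genes 7 had an unadjusted p under 0.05 by edgeR. The share of all genes under that unadjusted p was not counted. This count and the 2 of the copper list therefore show no excess. DESeq2 called 5 of the 20 genes, where it called 12.6% of all genes. Leaving out 1 library ended the Pfkfb3 call in 9 cases and the Car9 call in 6 (adjusted p up to 0.0921 and 0.0814). On log2(TPM + 1) the calls of Sec24d, Slc2a3 and Car9 were lost (limma adjusted p = 0.0902, 0.343 and 0.0843). Hif1a, a subunit of the hypoxia-inducible factor, was at -0.14 ± 0.20 (SE; edgeR adjusted p = 0.735).

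**Figure D5:**
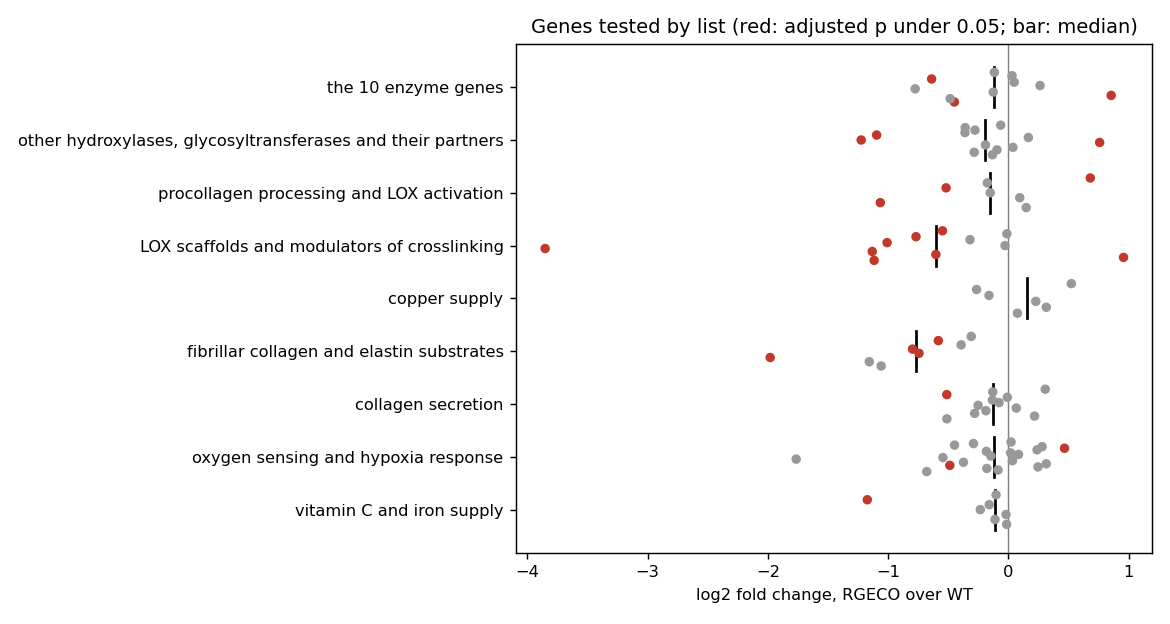
Log2 fold change (RGECO over WT) of each gene tested, by list, with called genes in red and the median of the list as a black bar. The medians are -0.12 for the 10 enzyme genes, -0.77 for the collagen and elastin substrates and -0.60 for the scaffolds and modulators; lists of cell type markers are not drawn.

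Markers of other cell types were looked at because several of these enzymes are abundant in connective tissue. Of 12 fibroblast markers listed 9 were tested, 0 rose and 2 fell, the growth factor receptor Pdgfrb at -1.59 and the transcription factor Tcf7l2 at -0.90 (edgeR adjusted p = 1.03e-05 and 0.00917), and the summed TPM of the list was 95.3 to 129 in RGECO and 116 to 157 in WT. Most of the fibroblast sum was Cd34, at a mean of 76.5 TPM in RGECO and 84.3 TPM in WT. The fibroblast gene Tcf21 held 0 counts in both lines, and Thy1 held 1 count over the RGECO libraries and 0 over the WT libraries. Of 9 endothelial markers 2 were tested and none passed, with summed TPM of 2.02 to 7.90 in RGECO and 3.33 to 7.40 in WT, and of 8 macrophage markers 1 was tested and did not pass, with 18.1 to 40.2 in RGECO and 21.0 to 31.2 in WT. Nearly all of the macrophage sum was Cd68, at a mean of 26.5 TPM in RGECO and 23.8 TPM in WT, and the other 7 genes held 0 to 33 counts over the RGECO libraries and 0 to 37 over the WT libraries. The endothelial genes Tie1 and Emcn and the macrophage genes Adgre1 and Tyrobp held 0 counts in both lines. Ptprc, the leukocyte antigen, held 0 counts over the RGECO libraries and 1 over the WT libraries. Of 8 bone and cartilage markers 2 were tested and 1 fell, Runx2 at -0.53, and of 6 smooth muscle markers 3 were tested and 1 fell, Tagln at -0.70 (edgeR adjusted p = 0.0107 and 0.0178). Their summed TPM was 26.4 to 45.4 in RGECO and 35.5 to 52.8 in WT for bone and cartilage, and 725 to 1261 in RGECO and 1111 to 1395 in WT for smooth muscle. Most of the smooth muscle sum was Acta2, at 648 to 1096 TPM in RGECO and 971 to 1202 TPM in WT. The highest value in any library was 0.531 TPM for Myh11, 0.565 TPM for Myocd and 4.45 TPM for Cnn1. Of 9 myotube markers 1 rose, Myh3 at 0.54 (edgeR adjusted p = 0.0202), and their summed TPM was 15806 to 21034 in RGECO and 12681 to 15090 in WT, without overlap. More of this sum came from Acta1, which did not pass (edgeR adjusted p = 0.448), than from the other 8 genes together. Ckm and Myog had log2 fold changes of -0.35 and -0.18 (edgeR adjusted p = 0.199 and 0.596), and the median of the 9 genes was 0.08. In TPM, Acta1 ran from 8160 to 12176 in RGECO and from 6527 to 7929 in WT. Mymk ran from 651 to 766 TPM in RGECO and from 494 to 626 TPM in WT. The part of cell make-up in the differences of the enzyme genes was not tested.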

How the data were processed

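Poly(A)-selected RNA was sequenced as paired reads of 50 bases on a Singular G4 instrument, per the labels' protocols, with 14 cycles of PCR. The authors deposited estimated counts per gene, without normalisation and with fractions possible, and TPM per gene, corrected for transcript length and scaled to 1000000 per library. The file headers and names point to Salmon. Per the submitters' processing notes the tools included Salmon, STAR, bedtools 2.25.0 and BWA 0.7.12-r1039, and the builds listed were GRCm39, mm10 and hg19. The sources used here do not give their roles, the strand setting or the annotation release.

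Rounded estimated counts entered edgeR 4.0.16 (R 4.3.3) (filterByExpr, TMM scaling, robust quasi-likelihood F test), adjusted by Benjamini-Hochberg across 13318 kept genes, threshold 0.05. Standard errors came from the F statistic. CPM are counts per 1000000 counts of kept genes, scaled by TMM, and log2 CPM used a prior count of 2. RGECO replicate 4 was left out because its total was under 1000000 counts. Paralog ratios were compared by two-sided exact permutation over 462 assignments, with SciPy 1.17.1. Alternatives were DESeq2 1.42.0, limma 3.58.1 on log2(TPM + 1), other filters, covariates, a replicate block and leaving out each library. The test scripts were tested on simulated data. In simulated counts of 5 against 6 libraries, edgeR recovered 61% of 2-fold and 84% of 4-fold changes. Of its calls there 4.6% were false. A gene that did not pass may therefore still differ between the lines.

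The 10 genes, the pathway lists and the rule for named genes were chosen with earlier results of these data known. The rule names all 10 genes, in each pathway list at most the 4 genes of smallest p past the threshold in each direction, and P4hb, P4ha3, Bmp1, Col1a1 and Hif1a at any value. Among 25 within-line library pairs, chi-square per gene was at least 7.61, so no pair was counted as 1 library. Whether replicates are separate cultures is not in the labels, and the p-values then reflect only the spread of these samples, possibly technical. Gene positions are from GENCODE M21 on GRCm38, matched by gene ID, and promoter sequences are from RefSeq on GRCm38.p6, matched by symbol for 5 of the 10 genes.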

Additional observations from a re-analysis of the deposited data

How the results depend on the processing

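Over 21 alternatives, 180 of 210 fold changes of the 10 genes kept their direction and their side of the threshold, 14 lost a call, 8 gained one and 8 changed sign. The number of enzyme genes called was 3, and 2 to 3 when 1 library was left out. It was 1 with all 12 libraries, 7 with the Malat1 share and 6 with the mitochondrial share as covariates. The number of all genes called was 1112, and 785 to 1140 when 1 library was left out. It was 1674 by DESeq2, 2771 and 3133 with the Malat1 and mitochondrial shares, 568 on log2(TPM + 1), 537 on log2(TPM + 0.1) and 258 on log2(TPM + 1) without a filter. On log2(TPM + 1) 327 genes were higher and 241 lower, against 456 and 656 in the count fit. The cause of these differences was not tested. With all 12 libraries the call of Plod1 was lost (log2 fold change -0.72, adjusted p = 0.196) and that of Lox (-0.66, adjusted p = 0.714).

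Sign changes concerned genes near 0. Plod2 was at -0.0577 with all 12 libraries, and ran from -0.0835 (without WT replicate 2) to 0.149 (without WT replicate 6) when 1 library was left out, with -0.01 without RGECO replicate 6 and -0.04 without WT replicate 1. P4ha2 was at -0.0262 with all 12 libraries and below 0 on each of the TPM fits (-0.0326 with 1 added, -0.0329 with 0.1 added). Hif1a was at 0.14 with the Malat1 share and 0.10 with the mitochondrial share. When 1 library was left out, the differences in log2 ratio ran from 0.92 to 1.04 for Loxl2 to Loxl3, 0.50 to 0.87 for Plod2 to Plod1, -0.31 to -0.11 for P4ha2 to P4ha1 and -0.17 to 0.18 for Loxl1 to Lox.

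The labels number the replicates of both lines, and deviations of same-numbered libraries correlated at -0.15 to 0.36 with 1 of 5 numbers best matched to itself, so the numbers were not taken as pairs. With the replicate block 781 genes passed, and of the enzyme genes Loxl1 gained a call (-0.54, adjusted p = 0.0418) and Lox lost it (-0.40, adjusted p = 0.0684). Paired by number, the Loxl2 to Loxl3 difference was 1.03 (exact permutation adjusted p = 0.125, where 5 pairs allow no p under 0.0625). Among the pathway genes named, Pfkfb3 and Car9 lost their calls most often, under 12 and 10 of 21 alternatives. Loxl4, with 337 counts over the RGECO libraries and 706 over the WT libraries, had the lowest counts of the 10 enzyme genes, and Fmod, with 21 and 428, held fewer still in RGECO.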

Other observations

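For each enzyme gene the gene with the nearest profile over the 11 libraries was sought among 7883 genes (7884 for Loxl4) whose log2 CPM averaged 4 or more, by the root mean square difference of mean-centred log2 CPM. For Loxl2 it was the netrin gene Ntn4, at 0.15, against a median of 0.51 over all candidates, and Ntn4 was itself higher in RGECO by a log2 fold change of 1.07 (edgeR adjusted p = 8.89e-06). For Lox it was Rspry1 at 0.09 (median 0.40), for Plod1 the tRNA synthetase subunit Farsa at 0.09 (median 0.44), for Plod2 the Golgi gene Gcc2 at 0.08 (median 0.44) and for P4ha1 the mitochondrial channel Vdac1 at 0.09 (median 0.34). For Loxl1 it was Il17rc at 0.11, for Loxl3 Nudt16l1 at 0.12, for Loxl4 Cox6a2 at 0.20, for Plod3 Sun2 at 0.05 and for P4ha2 Drosha at 0.05. A nearest gene exists for any profile, and the distances are a description of these 11 libraries.

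No library of the 10 genes or 4 ratios stood apart from its own line by Dixon's criterion, in 28 groups looked at.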
